A study of Rattus norvegicus with 10 samples.

Results

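The 10 genes described here encode enzymes of glycolysis and of glycogen breakdown in skeletal muscle: Gapdh, Ldha, Pfkm, Pkm, Aldoa, Pgam2, Eno3, Pygm, Phka1 and Hk2. They were chosen by gene name from the 32883 features of the deposited rat table, and all 10 were found there, each on 1 feature. Glycolysis splits glucose to pyruvate in the cytosol and yields ATP without oxygen, and lactate dehydrogenase then turns pyruvate to lactate. Fast-twitch fibres depend on this route during short, strong contractions and feed it from their own glycogen, which glycogen phosphorylase cuts and phosphorylase kinase, switched on by calcium, sets in motion. Several steps have a muscle isoform beside a form used by other tissues, so the balance of isoforms is also a sign of which cells a piece of muscle holds.

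The 10 libraries hold muscle RNA of Sprague Dawley rats. By their treatment labels 4 are NC, 3 are MPS, short for myofascial pain syndrome (tender, taut spots in muscle), and 3 are TZG; the sample titles call the TZG libraries drug, and the series concerns a herbal liquid extract named Tianhe Zhuifeng. The labels do not spell out NC or TZG, name no muscle, dose, time, age or sex, and do not say whether the TZG rats carried the pain model or how it was made. Nothing says that the libraries come from separate rats, so each p-value measures the spread between these libraries, which may be technical.

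In MPS 10 and MPS 11, 4 of these genes had levels all above or all below those of the 4 NC libraries, as did 41.1% of all 13719 genes tested. With MPS 14 included, Gapdh, Pgam2 and Eno3 overlapped NC and only Phka1 did not. The sequences upstream of the 4 genes are shown. Each is the 250 bases before the RefSeq start on assembly GRCr8, read 5′ to 3′ on the gene's strand: Gapdh at chr4:159652468-159652717 (minus strand), Pgam2 at chr14:84897875-84898124 (minus), Eno3 at chr10:55868936-55869185 (plus) and Phka1 at chrX:71778122-71778371 (minus). Capitals mark matches on either strand to the E-box CANNTG, which myogenic factors can bind, to ACGTG, the core of a hypoxia response element, to TATAAA and to the MEF2 site; CACGTG would hold both of the first 2 motifs.
Gapdh: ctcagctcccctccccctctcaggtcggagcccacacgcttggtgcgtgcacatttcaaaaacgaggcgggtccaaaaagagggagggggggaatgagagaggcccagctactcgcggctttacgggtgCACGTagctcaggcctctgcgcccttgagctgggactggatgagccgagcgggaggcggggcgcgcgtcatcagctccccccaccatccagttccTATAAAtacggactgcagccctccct
Pgam2: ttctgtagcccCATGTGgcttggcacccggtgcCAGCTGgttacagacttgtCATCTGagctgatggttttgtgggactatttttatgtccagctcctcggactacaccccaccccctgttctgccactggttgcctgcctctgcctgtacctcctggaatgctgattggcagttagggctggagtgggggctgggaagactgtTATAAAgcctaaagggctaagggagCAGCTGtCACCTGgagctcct
Eno3: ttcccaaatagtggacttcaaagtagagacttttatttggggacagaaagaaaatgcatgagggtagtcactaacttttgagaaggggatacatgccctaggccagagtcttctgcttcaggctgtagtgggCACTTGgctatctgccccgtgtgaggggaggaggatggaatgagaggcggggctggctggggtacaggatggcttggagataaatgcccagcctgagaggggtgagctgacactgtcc
Phka1: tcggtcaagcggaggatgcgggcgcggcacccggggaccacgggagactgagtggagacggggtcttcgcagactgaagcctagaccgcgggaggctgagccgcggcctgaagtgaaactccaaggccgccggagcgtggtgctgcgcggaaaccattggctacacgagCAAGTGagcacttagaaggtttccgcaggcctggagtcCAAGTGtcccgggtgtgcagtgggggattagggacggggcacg
The Pgam2 window held 5 E-boxes and a TATAAA at positions -46 to -41 from the start, and the Gapdh window held a TATAAA at -26 to -21 and 1 ACGTG match. Eno3 had 1 E-box and Phka1 had 2. Over all 33469 RefSeq windows of this length, 65.5% held an E-box, 16.6% ACGTG, 12.9% TATAAA and 2.96% a MEF2 site. Among the windows of the other 6 genes, Ldha had 3 E-boxes, 1 of them a CACGTG that holds ACGTG on both strands, and a further ACGTG match. Pygm had 3 E-boxes and 1 ACGTG match, and Pfkm 1 ACGTG match. Of the 3 start sites of Aldoa, 1 had a MEF2 match, CTAAATATAG, and another an E-box and an ACGTG match; Pkm and Hk2 had no match. A match is a description of these letters only.

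Library totals lay between 12616160 and 18179144 counts, and mitochondrial genes took 18.7% to 38.6% of counts in 9 libraries and 9.71% in MPS 14. MPS 14 stands apart: 10 matched markers of lymphoid cells summed to 7694 CPM there (counts scaled to library total) and to 2.92 to 21.1 CPM in the other 9 libraries, where between 1 and 4 of those markers were at 0. The 8 matched fast fibre markers summed to 7112 CPM in MPS 14 against 118632 to 195149 CPM elsewhere. All comparisons with MPS are therefore given with all libraries and again without MPS 14. The 8 fast fibre markers were Acta1, Ckm, Myh4, Tnnt3, Tnni2, Tnnc2, Mylpf and Actn3. Acta1 and Ckm are not limited to fast fibres, and had 43758 and 31749 CPM of the 143329 in NC 4. The sum thus follows the content of muscle as well as that of fast fibres. TZG 43 had the highest mitochondrial share, 3714 CPM of fibroblast markers (629 to 2455 CPM in the other 9) and 109 CPM of endothelial markers (324 to 776 CPM). In a piece of tissue, fewer cells of a type and less RNA per cell cannot be told apart.

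The 10 genes together took 3.28% to 5.96% of all counts in the 9 libraries without MPS 14, and 0.351% in MPS 14. Per length, Aldoa was the most abundant, with a median over the 9 libraries of 11712 FPKM (counts per length and library total), followed by Eno3 at 5980 and Pgam2 at 4440 FPKM. Pygm (2249 FPKM), Gapdh (1441), Ldha (1320), Pfkm (756) and Pkm (530) came next, then Phka1 at 43.4 and Hk2 at 8.01 FPKM. Over the 9 libraries the ranges of neighbours in this order overlapped except between Ldha and Pfkm, between Pkm and Phka1 and between Phka1 and Hk2. Counts per library ran from 262 (Hk2, TZG 43) to 403806 (Aldoa, MPS 11), so counting error is small beside the spread between libraries.

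**Figure D1:**
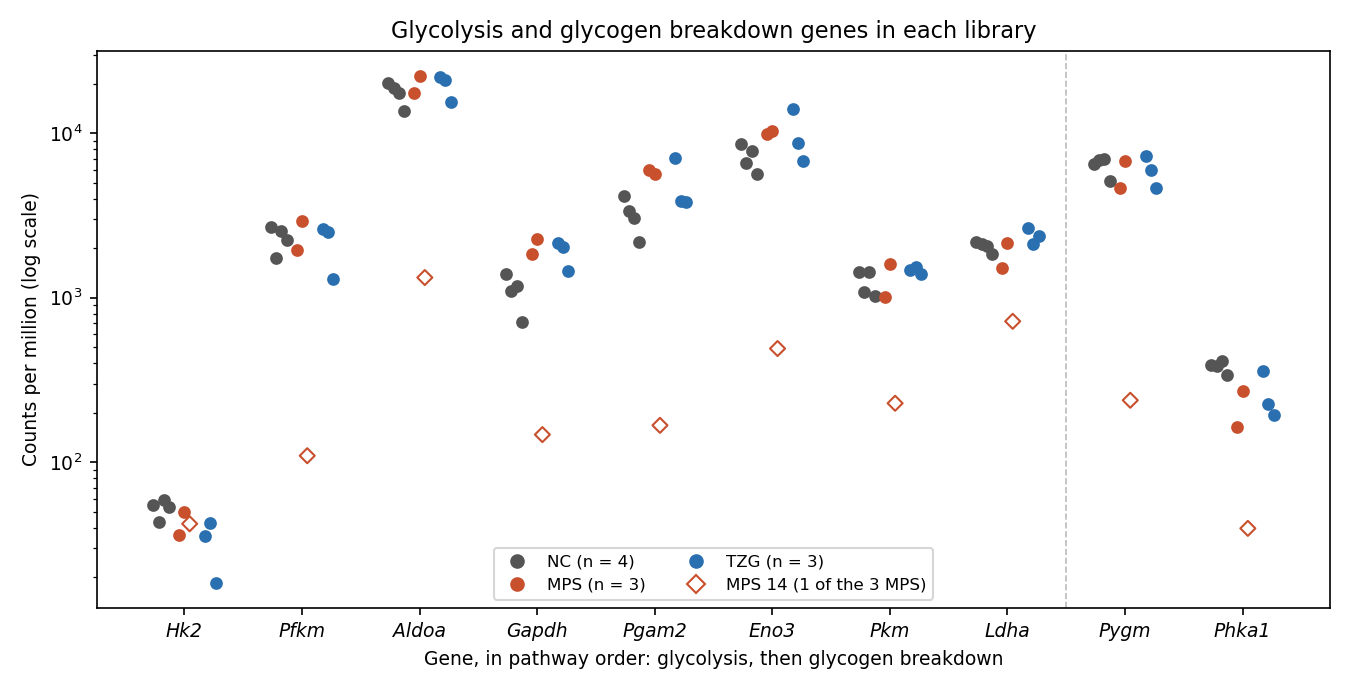
CPM on a log axis for the 10 genes in pathway order, 1 point per library, NC grey (n = 4), MPS red (n = 3, MPS 14 as an open diamond) and TZG blue (n = 3). MPS 14 lies below all others in every gene but Hk2; Gapdh, Pgam2 and Eno3 of MPS 10 and 11 lie above NC and Phka1 below it.

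At the entry of the route stands Hk2, the hexokinase that traps glucose in insulin-responsive muscle. It had 54.8, 43.5, 58.7 and 53.8 CPM in NC 4, 5, 6 and 7, 36.3, 49.7 and 42.3 in MPS 10, 11 and 14, and 35.7, 42.7 and 18.6 in TZG 26, 27 and 43. All 3 TZG libraries lay below the lowest NC library, while MPS overlapped NC. Pfkm is the muscle form of phosphofructokinase, the main control point of glycolysis. Its levels were 2705, 1744, 2559.9 and 2232 CPM in NC, 1957, 2919.9 and 109.6 in MPS 10, 11 and 14, and 2606, 2498 and 1298 in TZG, so that the groups overlapped. Aldoa, the aldolase that splits the 6-carbon sugar, stood at 20046, 18857, 17415 and 13691 CPM in NC, at 17589 and 22213 in MPS 10 and 11 with 1325 in MPS 14, and at 21924, 21009 and 15547 in TZG. These groups overlapped too.

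Gapdh catalyses the step that reduces NAD and is often used as a reference gene (ENSRNOG00000018630, chromosome 4, 157676595 to 157679962 in the deposited table, whose genome build is not given in the sources used here). It had 1397, 1095, 1169.9 and 712 CPM in NC 4, 5, 6 and 7. It had 1852 and 2264 CPM in MPS 10 and 11 and 147.3 in MPS 14, and 2164, 2026 and 1444 CPM in TZG 26, 27 and 43. Leaving out MPS 14, every MPS and TZG library exceeded every NC library, TZG 43 by little. Gapdh has processed pseudogenes in mammalian genomes, and how reads shared with copies were counted is not stated, so its level is uncertain to that extent.

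Pgam2 is the muscle phosphoglycerate mutase (ENSRNOG00000013532, chromosome 14, 86044969 to 86047162). It had 4139.7, 3368, 3056 and 2173 CPM in NC, 5989.7 and 5674 in MPS 10 and 11, 167.6 in MPS 14, and 7051, 3867 and 3830.4 in TZG. MPS 10 and 11 lay above NC, and only TZG 26 of the TZG libraries did. Eno3, the muscle enolase (ENSRNOG00000004078, chromosome 10, 57278307 to 57283653), had 8545, 6587, 7759 and 5632 CPM in NC, 9912 and 10253 in MPS 10 and 11, 490.9 in MPS 14, and 14051, 8747 and 6742 in TZG. As for Pgam2, MPS 10, MPS 11 and TZG 26 lay above NC, and here TZG 27 also passed the highest NC library.

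Pkm, the pyruvate kinase of muscle and most adult tissues, and Ldha, the muscle subunit of lactate dehydrogenase, close the route. Pkm ranged from 1019 to 1434 CPM in NC and from 1385 to 1526 in TZG, with 1003, 1599 and 228.3 CPM in MPS 10, 11 and 14. Ldha ranged from 1842 to 2189 CPM in NC and from 2111 to 2649 in TZG, with 1523, 2139 and 718.6 CPM in MPS 10, 11 and 14. In both genes MPS 10 lay below NC, MPS 11 did not, and TZG overlapped NC.

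On the glycogen side, Pygm, the muscle glycogen phosphorylase, stood at 6478, 6865, 6993 and 5149 CPM in NC, at 4608, 6730.5 and 238.1 in MPS 10, 11 and 14, and at 7290.2, 5980 and 4634 in TZG, with overlap between all groups. Phka1 is the muscle form of the alpha subunit of phosphorylase kinase, which switches Pygm on (ENSRNOG00000003063, chromosome X, 72377021 to 72515366). It had 390.5, 385.4, 410.6 and 341.4 CPM in NC, 164.4, 272.1 and 39.7 in MPS 10, 11 and 14, and 359.9, 226.2 and 195.0 in TZG. All 3 MPS libraries lay below every NC library, and 2 of the 3 TZG libraries did.

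In MPS 14 the 10 genes were low to different degrees, described for this 1 library. Pygm, Pgam2, Pfkm and Eno3 stood at 3.68%, 4.33%, 4.39% and 5.74% of their medians over the other 9 libraries, close to Ckm (4.16%) and Acta1 (5.53%), which encode muscle creatine kinase and skeletal actin. Aldoa (7.03%), Gapdh (10.2%), Phka1 (11.6%) and Pkm (16.0%) stood higher, and Ldha stood at 34.0%. Hk2 was at 97.2% of the median. The lymphoid markers move with this library; their part in these levels was not tested.

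MPS against NC sets the pain model beside the NC libraries. When all libraries were used, 3 of the 10 genes were higher in MPS, with a median log2 fold change over the 10 of -0.19 beside 0.13 over all 13535 genes tested. Phka1 had the lowest value, -1.05 ± 0.66 (SE; edgeR adjusted p = 0.574). Its normalised CPM were 172 ± 147 in MPS (SD, n = 3) and 355 ± 32.8 in NC (n = 4). Gapdh stood at 0.62 ± 0.80 (adjusted p = 0.797, edgeR). The 3 higher genes were Gapdh, Pgam2 and Eno3, and in limma-voom all 3 turned negative, at -0.21, -0.66 and -0.83. None of the 10 passed in edgeR, DESeq2 or limma-voom, none had an unadjusted p under 0.05 in edgeR, and edgeR called 0% of all genes (DESeq2 1.51%). In plain CPM 0 of 10 genes lay wholly above NC, against 3.51% of all genes, and 1 of 10, Phka1, wholly below, against 5.96%.

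Without MPS 14, 8 of the 10 genes were higher in MPS, with a median log2 fold change of 0.36 beside -0.02 over all 13719 genes tested, and Gapdh, Pgam2 and Eno3 had the highest values. Gapdh had a log2 fold change of 1.19 ± 0.28 (SE), from 953 ± 260 normalised CPM in NC (SD, n = 4) to 2173 ± 430 in MPS (n = 2), with an edgeR adjusted p of 0.0513, just short of the threshold of 0.05. Pgam2 stood at 1.14 ± 0.33 (edgeR adjusted p = 0.0921), with 6126 ± 117 against 2787 ± 802 normalised CPM, and Eno3 at 0.78 ± 0.30 (adjusted p = 0.177). Markers of cell types moved with the same 2 libraries. Schwann cell markers, 6 of 6 matched, summed to 738.4 and 479.0 CPM in MPS 10 and 11 against 53.1 to 216.0 in NC, and slow fibre markers, 9 of 9 matched, to 1697 and 3332 against 145.6 to 230.4 CPM. All 8 matched fast fibre markers had a log2 fold change above 0 in this fit, with a median of 0.60 (Tnnc2, fast troponin C, 1.19; Tnnt3, fast troponin T, 0.87), and all 5 fibroblast markers one below 0, with a median of -1.13 (Pdgfra -1.32, Dcn -1.57). Their part in the differences of the 10 genes was not tested. The other members lay closer to 0: Aldoa at 0.46, Pfkm at 0.37, Pkm at 0.36, Ldha and Pygm at 0.11, Hk2 at -0.01 and Phka1 at -0.52 ± 0.29 (edgeR adjusted p from 0.343 to 0.994).

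By the planned test 0 of the 10 genes were called without MPS 14, where edgeR called 2.38% of 13719 genes; 3 of 10 had an unadjusted p under 0.05, against 20.8% of all genes. DESeq2 called 2 of 10, Gapdh (adjusted p = 0.00136) and Pgam2 (0.0133), where it called 8.02% of all genes. Gapdh also passed in limma-voom (adjusted p = 0.0486; 2.83% of all genes called), at a mean of at least 5 CPM (edgeR adjusted p = 0.0421; 4.66%), with edgeR's robust estimate of the spread (0.0476; 2.64%) and in a fit of the 2 groups alone (0.0265; 8.81%), where Pgam2 passed as well (0.0332). It did not pass when libraries were scaled by their totals alone (log2 fold change 0.91, edgeR adjusted p = 0.114), after a correction for gene length (0.98; 0.0827), with RLE scaling (0.0526), without a filter on low counts (0.0648), or when any 1 of the 6 libraries compared was left out (0.99 to 1.40; 0.0698 to 0.358). In plain CPM, 3 of 10 genes lay wholly above NC, against 9.44% of all genes, and 1 of 10 wholly below, against 31.6%.

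Gene length moved with these values. The lengths implied by the deposited FPKM were 871 bases for Pgam2, 1002 for Gapdh and 1429 for Eno3, and 5432 for Hk2 and 7874 for Phka1. Across the 10 genes, the shorter ones had the higher fold changes in MPS against NC without MPS 14 (Spearman rho = -0.83, n = 10 genes of the same libraries); over 12279 genes with a length rho was -0.20. With all libraries rho was -0.81 in MPS against NC (-0.08 over all genes) and -0.94 in TZG against NC (-0.27). After the length correction Gapdh, Pgam2 and Phka1 stood at 0.98, 0.89 and -0.36. The part of length in these differences was not tested further.

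**Figure D2:**
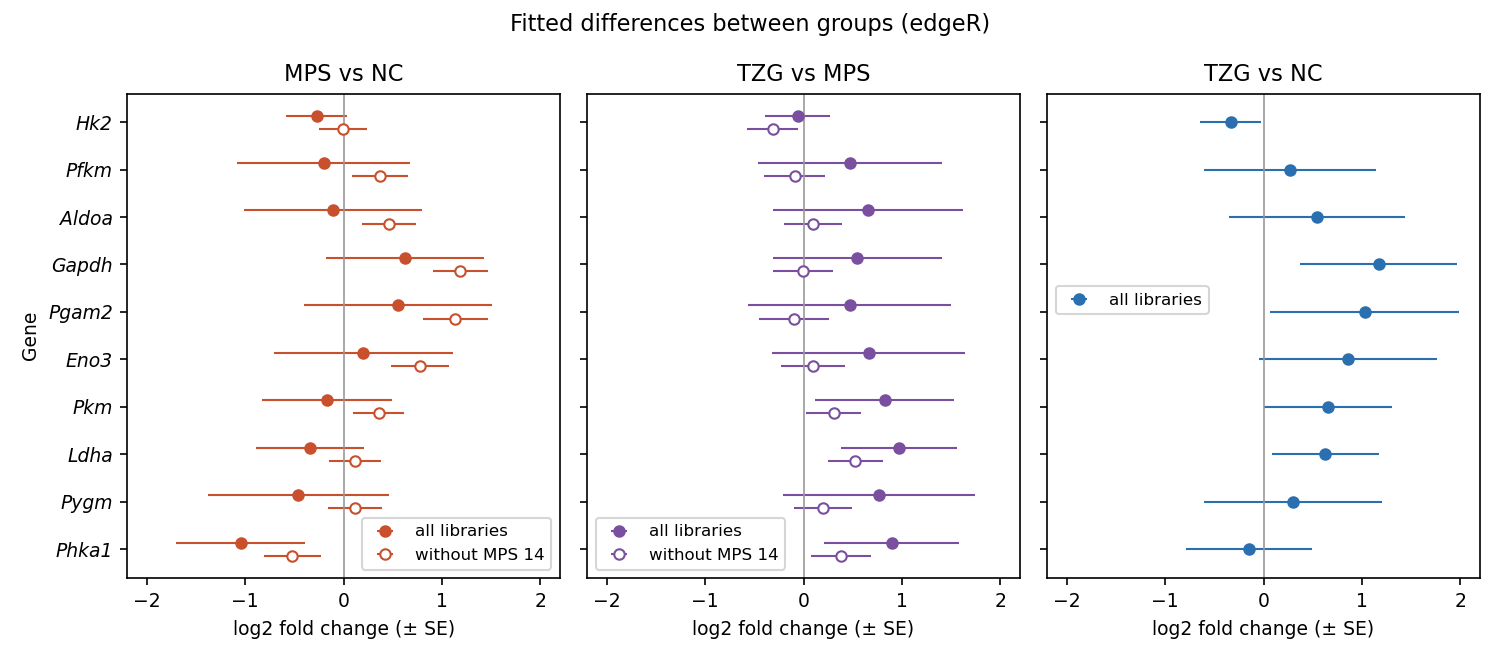
Log2 fold change with its standard error from edgeR for each of the 10 genes in the 3 comparisons. Filled points use all 10 libraries. Open points, drawn only in the comparisons with MPS, leave out MPS 14. Gapdh and Pgam2 without MPS 14 stand at 1.19 and 1.14 in MPS against NC. In the same fit TZG against MPS has a median of 0.10, with 6 genes higher and 4 lower.

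TZG against MPS asks whether muscle labelled TZG differs from that of the pain model. With all libraries, 9 of the 10 genes were higher in TZG, with a median log2 fold change of 0.66 beside -0.05 over all genes, and the values turn on MPS 14. Ldha (0.97 ± 0.59 SE), Phka1 (0.90 ± 0.69) and Pkm (0.82 ± 0.71) had the largest differences, all with an edgeR adjusted p of at least 0.774. Without MPS 14 the median was 0.10, with Ldha at 0.53 ± 0.28 (edgeR adjusted p = 0.97), Phka1 at 0.38 ± 0.31, Gapdh at -0.01 ± 0.30 and Hk2 at -0.32 ± 0.26. No member passed in edgeR, DESeq2 or limma-voom and none had an unadjusted p under 0.05 in edgeR with or without MPS 14, where edgeR called 0% and 0.00729% of all genes and DESeq2 0.0222% and 0.102%. At a mean of at least 5 CPM without MPS 14, 0 of 10 passed, against 0.0109% of all genes. In plain CPM all 10 genes overlapped between the groups, where 0.643% of all genes lay wholly above MPS and 7.29% wholly below, or 4.35% and 11.6% without MPS 14.

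TZG against NC sets the TZG libraries beside the NC libraries; it shares its NC libraries with the first comparison and its TZG libraries with the second. Gapdh again had the highest value, 1.17 ± 0.80 (SE; edgeR adjusted p = 0.88). Its normalised CPM were 2294 ± 280.0 in TZG (SD, n = 3) and 1017 ± 279.7 in NC (n = 4). Pgam2 stood at 1.03 ± 0.96, Eno3 at 0.86 ± 0.91, Pkm at 0.66 ± 0.66, Ldha at 0.63 ± 0.54, Phka1 at -0.15 ± 0.64 and Hk2 at -0.33 ± 0.31. None passed in edgeR, DESeq2 or limma-voom and none had an unadjusted p under 0.05, where edgeR called 0% of all genes and DESeq2 0.406%. In a fit of the 2 groups alone 0 of 10 passed, against 0.023% of all genes. The spread here is shared with MPS 14: with that library out of the fit, Gapdh stood at 1.18 with an edgeR adjusted p of 0.0663. Gapdh was the 1 gene of 10 wholly above NC in plain CPM (1.4% of all genes) and Hk2 the 1 wholly below (24.4%). Here too the shorter of the 10 genes had the higher values (rho = -0.94), and after the length correction Gapdh stood at 0.97.

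Ratios between 2 genes within a library do not depend on how libraries are scaled, so all 45 pairs of the 10 genes were described that way, a step added after the data were seen and given with no test. The ratio of Gapdh to Aldoa counts was 0.0697, 0.0581, 0.0672 and 0.052 in NC 4, 5, 6 and 7, 0.105, 0.102 and 0.111 in MPS 10, 11 and 14, and 0.0987, 0.0964 and 0.0929 in TZG 26, 27 and 43. All 6 libraries labelled MPS or TZG lay above the 4 NC libraries, MPS 14 among them, although its level of both genes was low. In MPS 14 Gapdh stood at 10.2% and Aldoa at 7.03% of their medians over the other 9 libraries. In each pair named here and below, the first gene fell less in that library than the second. The part of its lymphoid cells in these ratios was not tested, so MPS 14 does not add to MPS 10 and 11 here. MPS also lay above TZG, by a small margin. The lengths of the 2 genes are 1002 and 1610 bases. The pairs named were chosen after their values were seen.

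Other ratios kept NC apart from the rest with MPS 14 included. Gapdh to Pygm ranged from 0.138 to 0.216 in NC, from 0.336 to 0.619 in MPS and from 0.297 to 0.339 in TZG. Eno3 to Pygm ranged from 0.959 to 1.32 in NC, from 1.52 to 2.15 in MPS and from 1.45 to 1.93 in TZG. Pkm to Phka1 ranged from 2.82 to 3.66 in NC, from 5.76 to 6.1 in MPS and from 4.11 to 7.1 in TZG. On the log2 scale the length of the first gene relative to the second was -1.52, -1.01 and -1.55 in these 3 pairs and -0.68 for Gapdh and Aldoa. Other ratios to the same denominators overlapped between MPS and NC: those of Ldha, Pfkm and Pkm to Pygm, and those of Pfkm, Aldoa, Pgam2, Eno3 and Pygm to Phka1. Without MPS 14 those to Pygm still overlapped. All 9 ratios that hold Phka1 then did not, as was so for 44.2% of all pairs of genes of at least 10 CPM.

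**Figure D3:**
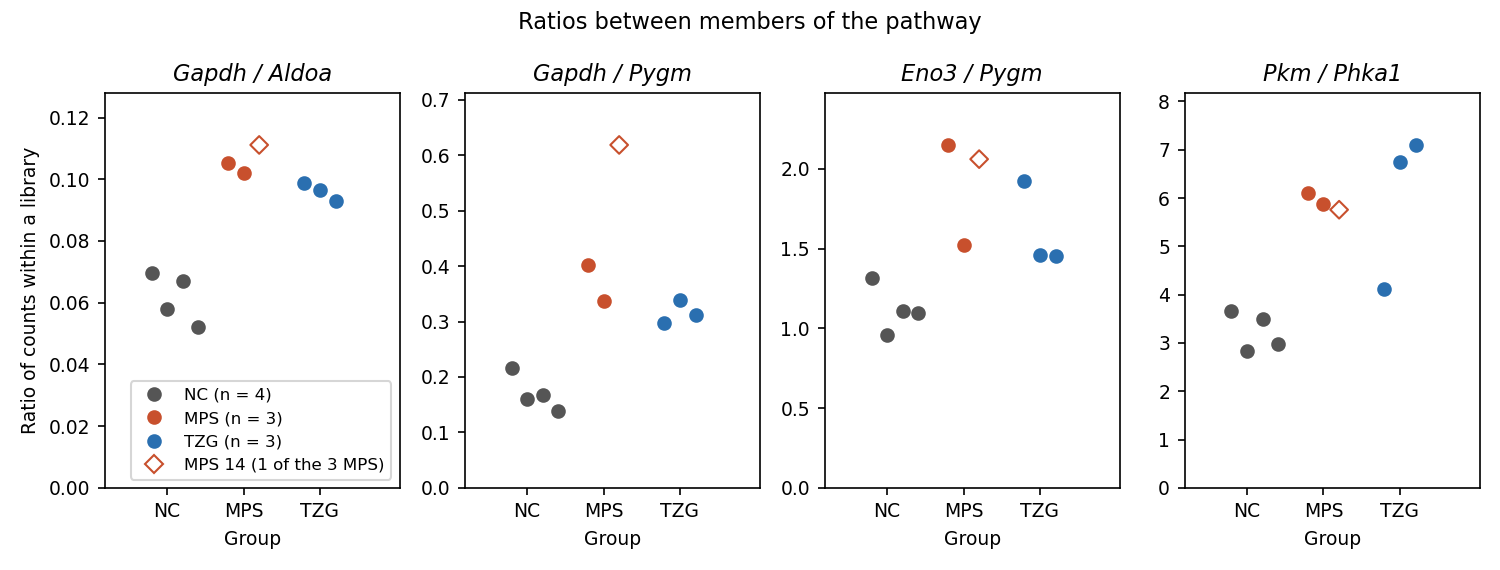
Ratio of counts of 2 genes within each library for 4 pairs named in the text, on linear axes from 0, with 1 point per library and MPS 14 as an open diamond. In each pair the 4 NC libraries lie below all 6 others.

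Counted over the 45 pairs, 11 did not overlap between MPS and NC, or 24.4%, where 12.3% of all pairs of genes of at least 10 CPM did not. Without MPS 14 it was 34 pairs, or 75.6%, against 44.2% of all pairs, and in TZG against NC 20 pairs, or 44.4%, against 21.2%. In TZG against MPS 6 pairs did not overlap, or 13.3% against 5.07%, and 12 without MPS 14, or 26.7% against 15.9%. Gapdh was in 5 of the 11 pairs of MPS against NC, Phka1 and Pygm in 4 each. In TZG against NC, Phka1 and Hk2 were in 7 pairs each. The pairs share genes and libraries and are not independent. The genes of at least 10 CPM were chosen by their mean over all 10 libraries, MPS 14 included. Some are therefore high in MPS 14 alone, such as Glycam1, with 1560 CPM there and 0 in the others. They were also not matched to the 10 genes in level. The shares over all pairs are thus no measure of how unusual these pairs are.

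The genes were also set against 8 fast fibre markers of the same library, Acta1 and Ckm among them (9 were listed and Atp2a1 was not matched). Phka1 was then steady in NC, at -5.21, -5.10, -5.18 and -5.12 on the log2 scale. It stood at -6.59 and -6.09 in MPS 10 and 11, at -5.90, -6.11 and -6.21 in TZG 26, 27 and 43, and at -4.19 in MPS 14. Pygm on this scale lay between -1.21 and -0.95 in NC and between -1.78 and -1.39 in the 6 other libraries, MPS 14 included. Hk2 lay between -8.25 and -7.78 in NC and between -9.60 and -8.52 in the other libraries except MPS 14 (-4.09). Gapdh lay between -4.06 and -3.37 in NC and between -3.33 and -2.29 in the 6 others. Aldoa, Ldha, Pfkm, Pkm, Pgam2 and Eno3 overlapped with NC in both MPS and TZG when all libraries were used. Counted after the data were seen, 1 of 10 genes in MPS lay wholly above NC (Gapdh, with 4.32% of 7847 genes of at least 10 CPM) and 1 wholly below (Pygm, with 0.357%). The fast fibre markers summed to only 7112 CPM in MPS 14, so any gene that fell less there than these markers is raised on this scale. Few genes can then lie below NC with MPS 14 in the group, and the 0.357% is no measure of how unusual Pygm is. Without MPS 14, 2 lay above (Gapdh and Pgam2; 4.54%) and 4 below (Ldha, Pygm, Phka1 and Hk2; 57.1%). In TZG, 1 lay above (Gapdh; 0.459%) and 3 below (Pygm, Phka1 and Hk2; 52.2%), so that lying below NC on this scale was common among all genes in these last 2 settings.

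Over the 9 libraries without MPS 14 the 10 genes varied together only in part. Of the 45 pairs, 37 had a Pearson r of log2 CPM above 0, with a median of 0.41 and a range from -0.43 to 0.92. Aldoa followed the mean of the 10 most closely (r = 0.90) and Hk2 least (0.35). Each of the 10 genes is itself part of that mean, which raises its r. Outside the 10 genes, all named genes with a mean of at least 1 CPM were searched for the 5 most like that mean. These were Akr7a2, an aldehyde reductase (r = 0.93), Mtfr1l (0.92), Slc43a2, an amino acid transporter (0.91), Vwa5b2 (0.91) and Cby1, a brake on beta-catenin (0.91). Vwa5b2 and Cby1 were low, at means of 1.90 and 5.32 CPM. The highest r of such a search over 9 libraries that share their scaling is high in any case, so these values show no link to the pathway.

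The balance of isoforms was described for 7 enzyme families as the share of the muscle form in the family's summed FPKM; Phka2 was not matched, so Phka1 has no share. In NC, Pfkm made up 98.8% to 99.1% of phosphofructokinase, Pgam2 99.1% to 99.5% of the mutase, Eno3 98.7% to 99.0% of enolase and Pygm 99.8% to 99.9% of phosphorylase. The Aldoa share was 99.76% in MPS 14 and at least 99.985% in the other 9 libraries. Hk2 shared its step with Hk1, the hexokinase of most tissues, and took 60.8% to 67.3% in NC, 54.3%, 76.1% and 37.2% in MPS 10, 11 and 14, and 58.6% to 67.5% in TZG. In MPS 14 the shares were 55.8% for Pfkm, 63.2% for Pgam2, 71.3% for Eno3 and 86.3% for Pygm, far below the other 9 libraries, whose lowest values were 98.4%, 99.1%, 97.9% and 99.4%. There the forms used by other tissues stood high: Pgam1 at 195.2 CPM against 38 to 50.5 CPM, Eno1 at 258 against 95.6 to 189.3, and Pfkp, the platelet form, at 34.7 against 1.98 to 4.02.

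Ldhb, the heart-type subunit, was high in 4 libraries, where Ldha still made up most of the family. The Ldha share was 98.7%, 99.1%, 98.8% and 98.6% in NC 4, 5, 6 and 7, 95.5%, 93.2% and 82.6% in MPS 10, 11 and 14, and 99.3%, 93.3% and 99.3% in TZG 26, 27 and 43. The 3 MPS libraries lay below NC, and TZG 27 went with them. Ldhb stood at 59.4, 130.4 and 127 CPM in MPS 10, 11 and 14 and at 127.7 in TZG 27, against 14.8 to 24.1 CPM in the other 6 libraries. Slow fibre markers, 9 of 9 matched, summed to 1697, 3332 and 899.8 CPM in MPS 10, 11 and 14 and to 3846 in TZG 27, against 146 to 230.4 CPM in the other 6. In MPS 14 most of the sum came from Tpm3 (547.1 CPM) and Atp2a2 (236.9 CPM). There Myh7, Tnni1, Tnnc1 and Tnnt1 stood at 41.0, 33.6, 17.4 and 8.87 CPM, above NC but below MPS 10 and 11. Myl3 lay within the NC range, Myh7b (0.88 CPM) lay below it and Myl2 was at 0. The part of the slow fibre markers in the Ldhb level was not tested.

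By a two-sided exact permutation test of the mean share, MPS had 90.4% ± 6.91 Ldha (SD, n = 3) against 98.8% ± 0.206 in NC (n = 4), with p = 0.0571, the smallest that 4 against 3 libraries allow; it was 0.9 after adjustment over the 21 tests of 7 shares in 3 comparisons. No other share had a p below 0.114 in this exact permutation test, and 3 libraries against 3 cannot go below 0.1.

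**Figure D4:**
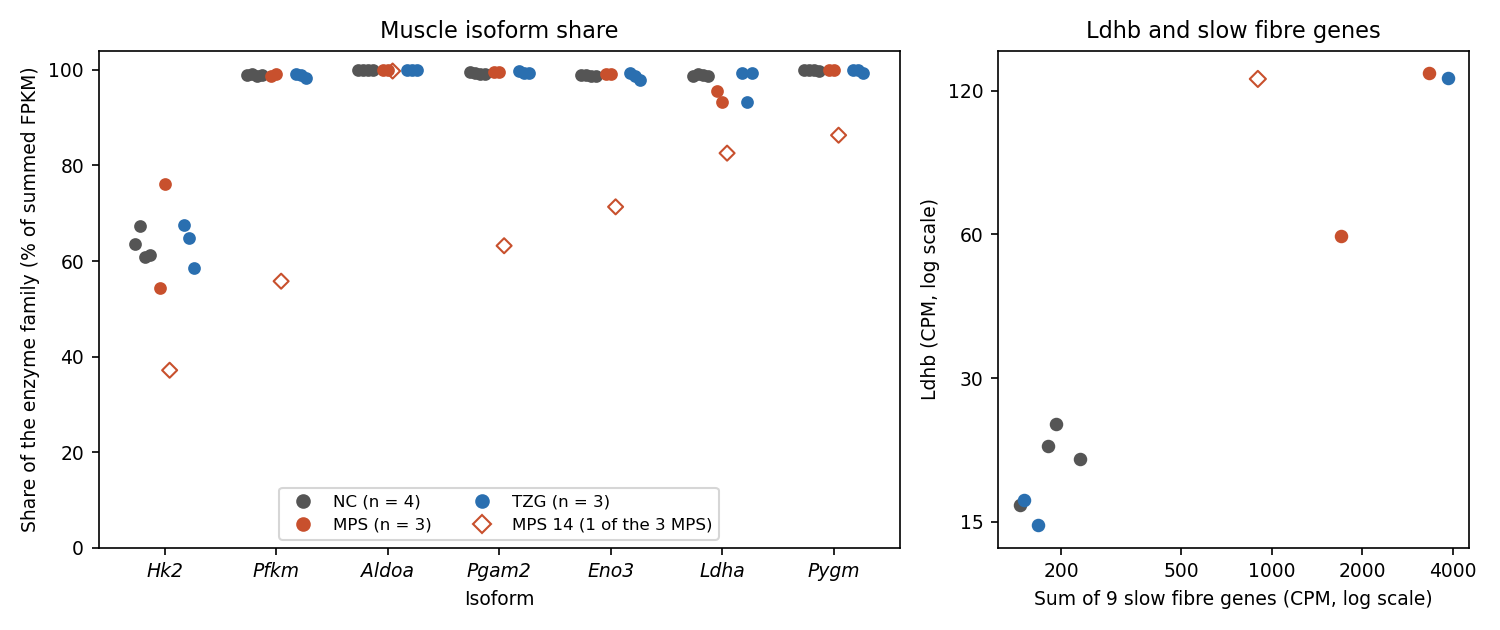
Left, the share of the muscle isoform in the summed FPKM of its enzyme family, in percent, 1 point per library. Right, Ldhb against the sum of 9 slow fibre genes, both in CPM on log axes. MPS 10, 11 and 14 and TZG 27 lie at 59.4 CPM of Ldhb or more. The other 6 libraries lie at 24.1 or less. In MPS 14 most of the slow fibre sum is Tpm3 and Atp2a2.

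The rest of the pathway was described from a list of 44 genes, of which 42 were matched and 35 were high enough to test. None of the 35 passed in the main edgeR fit in any of the comparisons. The alternative fits are given for the 10 genes only, so the 35 were not examined in the same depth. In the main edgeR fit an unadjusted p under 0.05 was held by 4 in MPS against NC and 5 without MPS 14. It was held by 1 in TZG against MPS with or without MPS 14, and by 2 in TZG against NC. Over all genes these shares were 10.96%, 20.8%, 5.33%, 4.44% and 5.63%, in the order MPS against NC with and without MPS 14, TZG against MPS with and without MPS 14, and TZG against NC. Apart from the sister isoforms, the genes of this list named here were chosen after their values were seen. In MPS against NC without MPS 14, 23 of the 35 were higher, with a median log2 fold change of 0.18 beside -0.02 over all genes. Closest to the threshold were Slc2a4, the insulin-responsive glucose transporter GLUT4, at 1.05 ± 0.25 (SE; edgeR adjusted p = 0.0523), and Ldhb at 2.50 ± 0.65 (edgeR adjusted p = 0.07). Normalised CPM of Slc2a4 were 711 ± 120 in MPS (SD, n = 2) and 343 ± 41.4 in NC (n = 4). In plain CPM Slc2a4 had 621.1, 727.3 and 32.3 in MPS 10, 11 and 14, 325.4 to 449.7 in NC and 308.2 to 656.7 in TZG.

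The other glycolytic steps lay nearer 0 in the same fit. Tpi1 (triose phosphate isomerase) stood at 0.46 ± 0.24, Pgk1 (phosphoglycerate kinase) at 0.46 ± 0.25 and Gpi (glucose phosphate isomerase) at 0.16 ± 0.29, and Pgm1, which joins glycogen to glycolysis, at 0.12 ± 0.25. Of the 11 tested genes of other glycolytic steps, Ldhb included, 10 were higher, with a median of 0.39. Of 7 tested genes of glycogen synthesis 2 were higher: Gys1, the muscle glycogen synthase, stood at 0.62 ± 0.26 and Ppp1r3a, the muscle subunit that brings a phosphatase to glycogen, at -0.75 ± 0.30 (edgeR adjusted p = 0.207 and 0.187). Ppp1r3a had 505.2, 540.4, 531.7 and 817.3 CPM in NC, 245.3, 341.4 and 49.1 in MPS 10, 11 and 14, and 371.4, 346.3 and 204.7 in TZG, with every NC library above every other. Ppp1r3c, a second such subunit, had 269 to 291.6 CPM in NC, 197.9, 218.7 and 39.5 in MPS 10, 11 and 14, and 133.2, 224.6 and 83.8 in TZG, again with no overlap. In plain CPM 5.96% of all genes lay wholly below NC in MPS and 24.4% in TZG.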

How the data were processed

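Muscle RNA of 10 libraries was sequenced by the submitters. Per the submitters' processing notes, the tools included fastp, HISAT2, StringTie 1.3.3b and edgeR 3.30.3; the genome build, the counting settings and the use of strand are not given in the sources used here. The deposited table held raw counts per gene and FPKM values made by the authors; FPKM equalled counts per length and library total within 0.1% in 100% of values of at least 50 counts. Each library was assigned by its sample title, and its group is named by its treatment label.

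Counts were tested with edgeR 4.0.16 (R 4.3.3; TMM scaling, filterByExpr, quasi-likelihood F test, all libraries in 1 fit of 3 groups, Benjamini-Hochberg adjustment, threshold 0.05), with standard errors taken from the F statistic. DESeq2 1.42.0 and limma 3.58.1 (voom) were alternatives, as were other scalings, filters and leaving out each library. A robust spread estimate, a gene length correction and TZG against NC without MPS 14 were added after seeing the data. CPM were scaled by each library's total and normalised CPM by TMM as well. The fit was checked on simulated counts with a capped spread and no library standing apart, so that check does not cover the spread that MPS 14 brings. All 10 genes passed the low-count filter. The 10 genes, the lists and the tests were chosen with earlier results of these data known. The rule named all 10 genes, pathway genes past the threshold, sister isoforms and the 5 genes most like the mean of the 10.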

Additional observations from a re-analysis of the deposited data

How the results depend on the processing

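No paired analysis was possible because no 2 libraries of different groups share a number in their titles. With DESeq2, 205 genes were called in MPS against NC, 1100 without MPS 14, 3 in TZG against MPS, 14 without MPS 14 and 55 in TZG against NC, where edgeR called 0, 326, 0, 1 and 0. In MPS against NC without MPS 14, library totals alone gave 46 genes, a fit of the 2 groups 1181 and the length correction 205; of the 10 genes, DESeq2 and the 2-group fit called 2 each, and limma-voom, the 5 CPM minimum and the robust estimate 1 each. In TZG against MPS without MPS 14, limma-voom and the 2-group fit called 0 genes, and in TZG against NC the 2-group fit called 3.

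Some log2 fold changes changed sign. In MPS against NC, limma-voom gave Gapdh -0.21, Pgam2 -0.66 and Eno3 -0.83, and library totals alone gave Eno3 -0.051. Without MPS 14, library totals alone gave Ldha -0.16 and Pygm -0.17, and the length correction Hk2 0.13. In TZG against MPS the length correction gave Hk2 0.0064; without MPS 14, Gapdh was 0.0011 in limma-voom, 0.00097 at 5 CPM and 0.0073 in the 2-group fit, and library totals alone gave Aldoa -0.030 and Eno3 -0.034. In TZG against NC, library totals alone gave Pfkm -0.11 and Pygm -0.094, and the length correction Phka1 0.072. The cause was not tested.

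Leaving out each library in turn called 0 to 326 genes in MPS against NC, 1 to 85 without MPS 14, 0 to 1 in TZG against MPS, 0 to 2 without MPS 14 and 0 to 7 in TZG against NC, and 0 of the 10 genes throughout. Log2 fold changes then spanned 0 as follows. In MPS against NC, Ldha ran from -0.90 to 0.11, Pfkm from -0.98 to 0.37, Pkm from -0.93 to 0.36, Aldoa from -0.73 to 0.46, Eno3 from -0.27 to 0.78 and Pygm from -1.22 to 0.11. Without MPS 14, Ldha ran from -0.20 to 0.41, Pfkm from -0.0020 to 0.70, Pkm from -0.072 to 0.72, Pygm from -0.24 to 0.43 and Hk2 from -0.30 to 0.27. In TZG against MPS, Gapdh ran from -0.0055 to 1.14, Pfkm from -0.091 to 1.25, Pgam2 from -0.099 to 0.89 and Hk2 from -0.32 to 0.30. Without MPS 14, Gapdh ran from -0.22 to 0.19, Pfkm from -0.42 to 0.28, Pkm from -0.066 to 0.73, Aldoa from -0.14 to 0.32, Pgam2 from -0.45 to 0.11, Eno3 from -0.26 to 0.24, Pygm from -0.12 to 0.55 and Phka1 from -0.0095 to 0.84. In TZG against NC, Phka1 ran from -0.45 to 0.0079.

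Differences in isoform share, in percentage points, also spanned 0. In MPS against NC, Hk2 ran from -17.5 to 1.94, Aldoa from -0.114 to 0.00307, Pgam2 from -17.9 to 0.355, Eno3 from -13.6 to 0.284 and Pygm from -6.77 to 0.035. In TZG against MPS, Hk2 ran from -1.54 to 17.9, Pfkm from -0.0808 to 21.6, Pgam2 from -0.164 to 18.1, Eno3 from -0.459 to 13.4 and Pygm from -0.147 to 6.66. In TZG against NC, Hk2 ran from -1.52 to 2.95, Pfkm from -0.242 to 0.113, Eno3 from -0.494 to 0.209, Ldha from -2.55 to 0.443 and Pygm from -0.206 to 0.0716.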

Other observations

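In MPS 14, glucose transport genes stood apart in opposite directions. Slc2a1, the glucose transporter of most growing and blood cells, had 36.7 CPM there against 1.99 to 6.12 CPM in the other 9 libraries, while Slc2a4, the muscle transporter, had 32.3 against 308.2 to 727.3 CPM. Macrophage markers, 5 of 5 matched, summed to 586.9 CPM in MPS 14 against 19.1 to 147.7 CPM elsewhere.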
